A study of Mus musculus with 23 samples.

Results

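The small leucine-rich proteoglycans are secreted proteins built on a leucine-rich repeat, and 10 of their genes were measured here by RNA sequencing of mouse quadriceps muscle and epididymal fat: Dcn, Bgn, Aspn, Lum, Fmod, Prelp, Kera, Omd, Ogn and Chad. They were chosen by gene name, with the difference between KPC tumor and no tumor in quadriceps already in view. In quadriceps 9 of the 10 have a row among 12831 genes (Omd has none), and in fat 9 of the 10 have a row among 16962 genes (Kera has none), so 8 are in both tables. The animals were 8-week-old male C57BL/6J mice that had sham surgery (no tumor) or an injection of pancreatic cancer cells into the pancreas. The KPC cells carry LSL-Trp53R172H and Pdx1-Cre and come from the tumor of a male mouse. The control line (KPC) is a clone given a null guide plasmid, and the KPC IL6KO line is 1 clone in which CRISPR/Cas9 disrupted the gene for interleukin-6 (IL-6). The hosts were not edited, so their own cells can still make IL-6 in either tumor group, and all mice were killed when the KPC group had wasted. Quadriceps came from 3 mice with no tumor and 4 with each tumor, and fat from 4 mice of each group. The sample titles number the fat libraries 5 to 8 and the muscle libraries from 1, without saying whether any mouse gave both tissues. Total counts were 19259763 to 74907810 per quadriceps library and 26306377 to 56308545 per fat library. At that depth 3 counts equal 0.0462 to 0.154 CPM (read counts scaled to a common library size, with TMM factors) in quadriceps and 0.0474 to 0.123 CPM in fat, which covers counting error only. The tissue labels fit the muscle fiber markers: 12 muscle fiber genes summed to 142661 CPM or more in each quadriceps, the 11 of them with a row in fat to at most 2862 CPM in any pad, and the sums of 12 adipocyte genes overlap between the tissues (1262 to 5477 CPM in quadriceps and 2928 to 52246 CPM in fat).

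Proteoglycans of this family lie on the surface of collagen fibrils, where they set how thick the fibrils grow and how closely they pack. Several also bind growth factors of the TGF-beta family in the matrix, and biglycan released from the matrix is a ligand of Toll-like receptors on immune cells. In muscle they are made mainly by fibroblasts of the connective tissue sheaths and of the tendon ends, and in fat by the stroma between the adipocytes.

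By class, Dcn (decorin), Bgn (biglycan) and Aspn (asporin) form class I, Lum (lumican), Fmod (fibromodulin), Prelp, Kera (keratocan) and Omd (osteomodulin) class II, Ogn (osteoglycin) class III and Chad (chondroadherin) class IV. On GRCm38, Dcn (chr10:97479609-97518143), Lum (chr10:97565128-97572703) and Kera (chr10:97606879-97613692) stand in a row on chromosome 10, and Aspn (chr13:49544443-49567565), Omd (chr13:49582462-49592822) and Ogn (chr13:49608046-49624501) on chromosome 13. Prelp (chr1:133910304-133921414) and Fmod (chr1:134037254-134048277) are 115839 bp apart on chromosome 1, Chad is at chr11:94565047-94569127 and Bgn at chrX:73483602-73495933. Cenpp, a centromere protein gene, overlaps Aspn, Omd and Ogn on the opposite strand, and Acsf2, an acyl-CoA synthetase gene, overlaps Chad in the same way. Cenpp averaged 0.546 CPM in no tumor quadriceps and 3.33 CPM in no tumor fat; Acsf2 averaged 5.37 and 24.02 CPM. The libraries were made strand-specific, but whether the counting used the strand is not stated, so reads of these pairs cannot be told apart here. The outer neighbours did not share 1 direction in quadriceps. Their log2 difference between KPC and no tumor was 1.47 for Btg1 beside Dcn, -2.15 for Ecm2 beside Aspn, -0.21 for Haus7 and -1.06 for Atp2b3 beside Bgn, 1.73 for Nol8 beside Ogn, 2.66 for Btg2 beside Fmod, and -0.53 for Rsad1 and 1.93 for Lrrc59 beside Chad. The overlapping Cenpp and Acsf2 gave -0.13 and -0.71, and the neighbours Epyc (beside Kera) and Optc (beside Prelp) have a row in fat alone.

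Windows of 250 bases were read for the 8 members with a RefSeq promoter entry on GRCm38.p6 (Bgn, Aspn, Fmod, Prelp, Kera, Omd, Ogn and Chad). That of Kera (chr10:97606955-97607204) lies after the start given above and wholly within exon sequence, and that of Prelp holds 23 exon bases, so these 2 are not clear of the transcript. On either strand, TATAAA, a core promoter motif, occurs in 3 of these 8 windows and in 12.4% of 32817 windows in all, and CATCTG (an E-box of the kind scleraxis binds) in 1 of 8 and in 14.5%. TTCNNNGAA (read by STAT proteins) occurs in 0 of 8 and in 7.01%, and CAGACA (read by SMAD proteins) in 0 of 8 and in 17.1%. Of the 3 members shown, each from another class of the family, the first is Fmod (chr1:134037004-134037253, + strand), which holds the E-box match. The second is Chad (chr11:94564797-94565046, + strand), which holds the core promoter motif close to its end, and the third is Bgn (chrX:73483351-73483600, + strand), which holds none of the motifs. Capitals mark the matches, and a match describes the letters only.
Fmod: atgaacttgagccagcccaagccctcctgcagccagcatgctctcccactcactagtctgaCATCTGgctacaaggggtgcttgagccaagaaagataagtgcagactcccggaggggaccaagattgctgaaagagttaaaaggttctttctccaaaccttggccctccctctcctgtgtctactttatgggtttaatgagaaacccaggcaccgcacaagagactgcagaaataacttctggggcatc
Chad: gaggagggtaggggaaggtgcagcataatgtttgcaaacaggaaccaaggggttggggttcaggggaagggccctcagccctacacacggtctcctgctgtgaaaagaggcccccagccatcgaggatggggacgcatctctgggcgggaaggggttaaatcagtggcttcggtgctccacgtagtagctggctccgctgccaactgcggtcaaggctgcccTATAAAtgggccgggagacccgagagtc
Bgn: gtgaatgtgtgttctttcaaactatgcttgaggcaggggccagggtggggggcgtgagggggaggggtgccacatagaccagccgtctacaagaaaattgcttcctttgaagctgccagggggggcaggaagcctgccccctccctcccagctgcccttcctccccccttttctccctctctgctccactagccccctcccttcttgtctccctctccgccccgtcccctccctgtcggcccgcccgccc

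The first comparison asks how muscle of wasting mice differs from muscle of mice without a tumor, and the 9 measured members were lower in every KPC library than in every no tumor library. Keratocan, a keratan sulfate proteoglycan known from the cornea and also made in tendon, had 7.31, 8.56 and 4.35 CPM in no tumor mice 1 to 3, 0.0616, 0.0342, 0.0655 and 0.151 CPM in KPC mice 1 to 4 and 2.26, 5.56, 0.771 and 1.80 CPM in KPC IL6KO mice 1 to 4. The KPC values rest on 4, 2, 4 and 8 counts, so Kera was at or near the depth limit in all 4 KPC muscles. Each KPC IL6KO muscle had at least 49 counts, and the KPC range touches neither other group. Pooled counts per group gave 97.1 times as much Kera in no tumor as in KPC muscle per library size. Its 95% counting interval, 61.1 to 165 (Poisson exact), leaves out the spread between mice. The fitted log2 difference was -6.43 ± 0.69 (standard error). Lumican, which also regulates fibril thickness, read 21.6, 18.9 and 17.9 CPM without a tumor, 2.79, 1.90, 0.655 and 0.903 CPM with KPC and 14.8, 13.1, 10.04 and 11.4 CPM with KPC IL6KO. Its 3 groups were fully separate, with KPC IL6KO between the others but close to no tumor, and the log2 difference between KPC and no tumor was -3.63 ± 0.39. Fibromodulin, which binds type I collagen and lysyl oxidase, had 103, 124 and 119.6 CPM in no tumor, 16.7, 6.64, 6.86 and 28.02 CPM in KPC and 68.5, 126, 23.6 and 49.01 CPM in KPC IL6KO muscles. KPC mouse 4 (28.02 CPM) was above KPC IL6KO mouse 3 (23.6 CPM), so these groups overlap, while KPC and no tumor do not (log2 difference -2.99 ± 0.57). Prelp, a proline- and arginine-rich member that anchors basement membranes to collagen, averaged 55.2 ± 15.8 CPM in no tumor (SD, n = 3), 12.98 ± 3.32 in KPC and 38.7 ± 5.17 in KPC IL6KO (SD, n = 4 each), with a log2 difference of -2.09 ± 0.22 between KPC and no tumor.

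Of the class I genes, decorin, which carries a dermatan sulfate chain and binds collagen, TGF-beta and myostatin, had 268, 268 and 297 CPM in no tumor, 222, 155, 164 and 143 CPM in KPC and 214, 213, 194 and 284 CPM in KPC IL6KO muscle. KPC mouse 1 was the highest of its group and above KPC IL6KO mice 1, 2 and 3. The log2 difference between KPC and no tumor, -0.70 ± 0.16, was the smallest of the 9 members. Biglycan, its closest relative in the family, had 51.7, 61.2 and 55.6 CPM in no tumor, 16.5, 11.6, 10.3 and 13.8 CPM in KPC and 52.9996, 50.3, 36.7 and 38.5 CPM in KPC IL6KO muscle. No KPC value reached either other group, and the log2 difference was -2.10 ± 0.18, a larger size than that of Dcn. Asporin, which binds TGF-beta and lacks a glycosaminoglycan chain, ranged over 3.15 to 4.39 CPM in no tumor and 1.22 to 2.15 CPM in KPC, a log2 difference of -1.25 ± 0.23. In the other classes, osteoglycin ranged over 14.3 to 21.2 CPM without a tumor and 2.67 to 5.05 CPM with KPC (log2 difference -2.03 ± 0.28). Chondroadherin, a cartilage and tendon protein that binds integrins, had 8.83, 8.13 and 8.61 CPM in no tumor, 0.832, 0.171, 1.18 and 1.66 CPM in KPC and 5.53, 14.6, 2.01 and 3.53 CPM in KPC IL6KO muscle, a log2 difference of -3.15 ± 0.68 between KPC and no tumor. The no tumor values of Chad were tight, and KPC IL6KO mouse 2 was above all of them while KPC IL6KO mouse 3 was nearest to KPC.

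**Figure D1:**
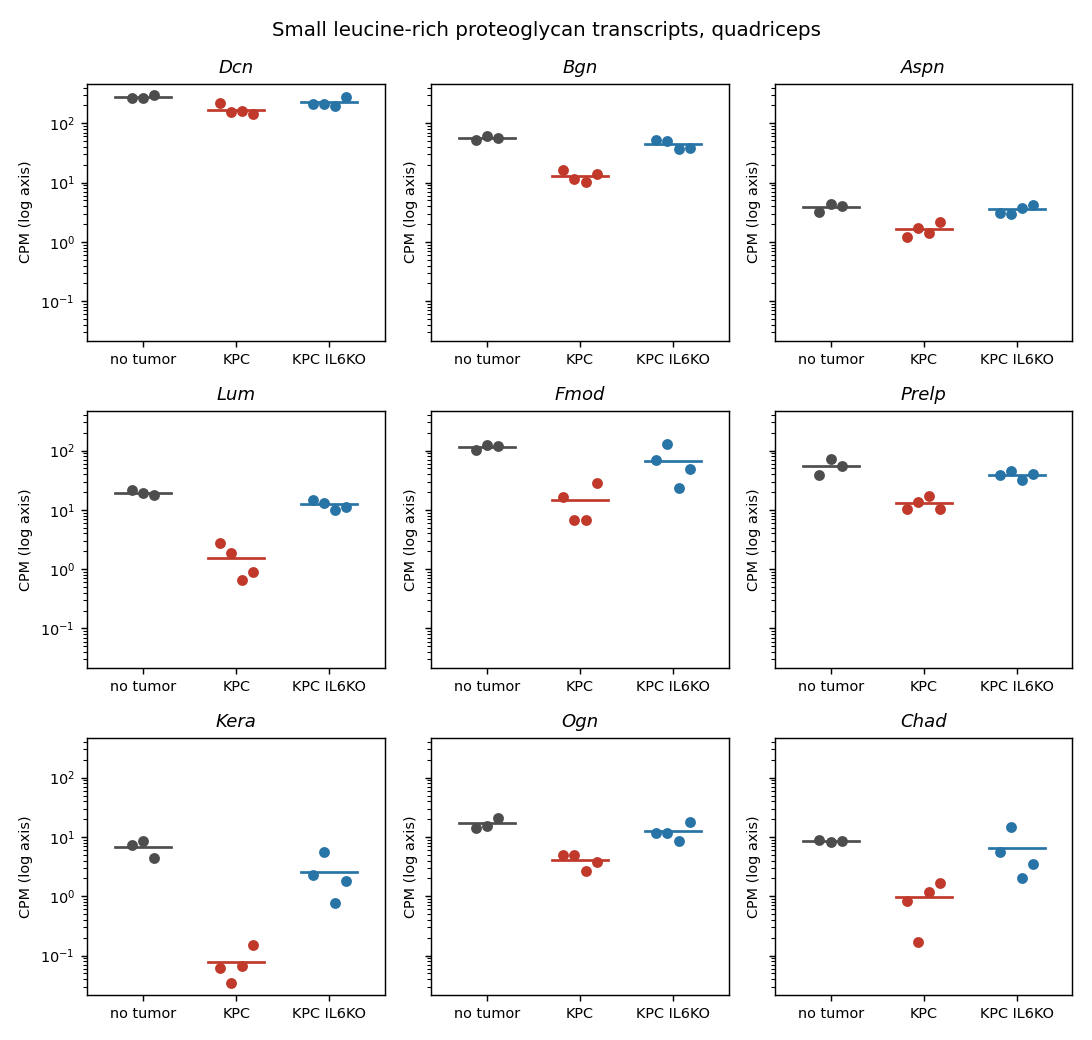
CPM of the 9 measured proteoglycan genes in each quadriceps library on a shared log axis; points are libraries (3 no tumor, 4 KPC, 4 KPC IL6KO) and lines are group means. In each panel the 4 KPC points lie below the 3 no tumor points, and in 7 panels also below the 4 KPC IL6KO points, the exceptions being Dcn and Fmod.

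All 9 members with a row were called lower in KPC than in no tumor muscle (adjusted p at most 0.05 and a fold change of at least 1.5), beside 29% of all 12831 genes called lower, and 9 of 9 did not overlap in that direction, beside 33% of all genes. This is the contrast that was in view when the members were chosen, so these counts and differences describe the choice and nothing is read from them. The median log2 difference was -2.10 over the 9 members and -0.03 over all genes. Together the members took 0.0562 to 0.0649% of all counts in no tumor muscle, 0.0187 to 0.0239% in KPC and 0.0315 to 0.0491% in KPC IL6KO. In whole muscle, fewer cells that make these proteins and less RNA per such cell cannot be told apart.

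Compared per kilobase of exon, the order of mean levels in no tumor quadriceps, in CPM per kb, was Dcn (47.6), Fmod (35.02), Prelp (15.3), Bgn (9.21), Lum (7.95), Ogn (6.59), Chad (5.07), Kera (2.96) and Aspn (1.65). The ranges of Bgn and Lum overlap, as do those of Lum and Ogn, and the other neighbours in that order are separate. Decorin stayed at the top in KPC muscle at 29.3 CPM per kb, Fmod and Prelp came next at 4.40 and 3.59 with overlapping ranges, and Kera was the lowest at 0.0342. The order after these was Bgn (2.14), Ogn (1.61), Aspn (0.690), Lum (0.638) and Chad (0.571), where Bgn overlaps Fmod and Ogn, Lum overlaps Ogn, and Aspn, Lum and Chad overlap each other. From no tumor to KPC, Aspn thus went from the last place to above Lum, Chad and Kera, and Lum from above Ogn to below it; of these swaps only that of Aspn and Kera has separate ranges in both groups.

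The next comparison asks whether muscle still differs from no tumor muscle when the tumor cells lack IL-6. None of the 9 members was called by the edgeR quasi-likelihood test, beside 0% of 12831 genes. At an unadjusted p under 0.05 there were 2 members, Kera and Prelp, beside 6.91% of genes. The edgeR likelihood ratio test called 0 members and 0.74% of genes, and DESeq2 called 0 members and 0.748% of genes. The estimates were nonetheless below 0 for 9 of 9 members, with a median of -0.42 against 0.00 over all genes, and each kept that sign under the other scalings tried. They share the no tumor libraries with the first comparison, so the common sign is not independent of it. Kera had the lowest estimate, a log2 difference of -1.39 ± 0.51 (adjusted p = 0.567), with 3 of 4 KPC IL6KO muscles under the lowest no tumor muscle. Without KPC IL6KO mouse 2, the muscle of that group highest in Kera, it was -2.08. Prelp gave -0.51 ± 0.22 (adjusted p = 0.652), and Lum, with -0.66 ± 0.36 (adjusted p = 0.835), was the 1 member whose KPC IL6KO values all lay below its no tumor values, beside 8.01% of genes. Aspn was nearest to 0 at -0.13 ± 0.22, and Chad gave -0.41 ± 0.63, or -1.21 without KPC IL6KO mouse 2.

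Between the tumor groups, 8 of 9 members were called lower in KPC than in KPC IL6KO muscle, beside 27.3% of all genes, and 7 of 9 did not overlap in that direction, beside 30.8%. The KPC libraries are those of the first comparison, so this count too is a description. The log2 differences were -5.05 ± 0.66 for Kera, -2.97 ± 0.37 for Lum, -2.75 ± 0.65 for Chad, -2.20 ± 0.53 for Fmod and -1.77 ± 0.17 for Bgn. Those of Ogn, Prelp and Aspn were -1.60, -1.58 and -1.12. Dcn was the member not called, at -0.40 ± 0.15, which is a fold change of 1.32 and under the 1.5 required. Without KPC IL6KO mouse 2 the differences of Kera and Chad were -4.35 and -1.94, each smaller by over 1.5 times as a fold change but still called.

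**Figure D2:**
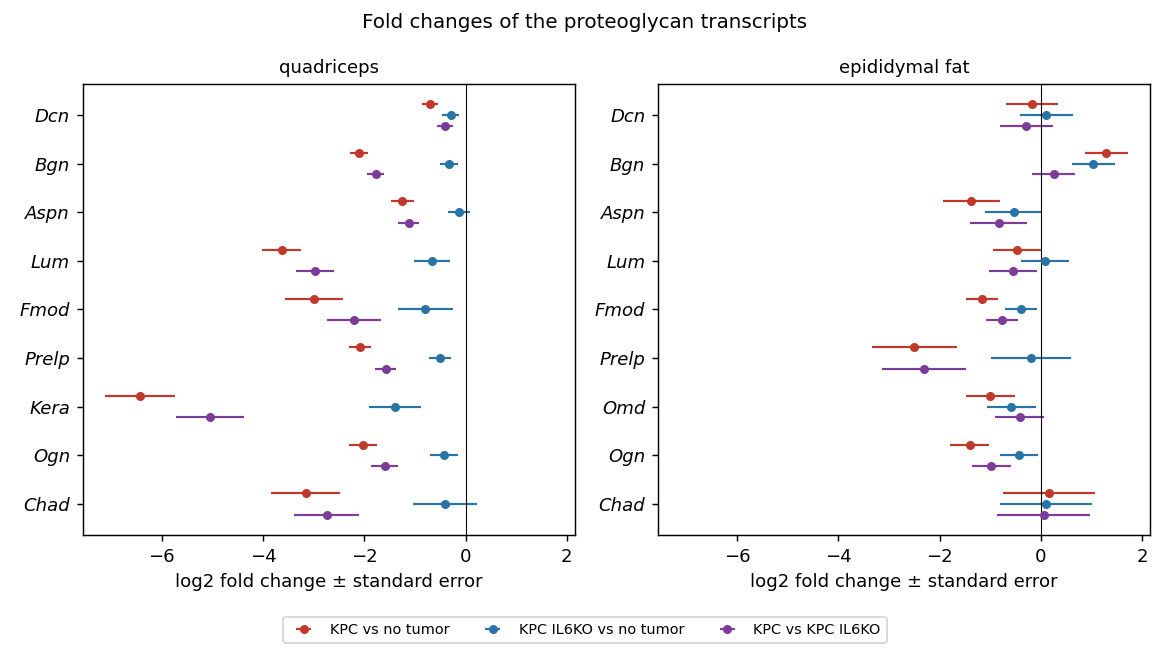
Log2 fold change of each member (horizontal axis, with its standard error as the bar) in quadriceps and in epididymal fat for the 3 comparisons, marked by color. In quadriceps the estimates for KPC IL6KO against no tumor (-1.39 to -0.13) lie between 0 and those for KPC against no tumor. In fat Bgn and Chad lie above 0 in all 3 comparisons, Chad by at most 0.16.

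Transcripts of fibril collagens, of collagen VI and of fibril-associated collagens were lower as well in KPC muscle. Of 12 such genes, 11 were called lower and 0 higher than in no tumor (all genes: 29% lower and 26.7% higher), with a median log2 difference of -4.05, lower than the members' median. Here and in the lists below, the highest and lowest genes of a list are taken among those with mean log2 CPM of at least 1. Col3a1, the fibrillar collagen of loose connective tissue and the most abundant of the list, had the lowest such value, -5.56 ± 0.40. Col12a1, a fibril-associated collagen, had the highest, -0.51 ± 0.33. Summed over the list, the collagens had 1371, 1411 and 1468 CPM in no tumor, 99.4, 95.2, 97.4 and 63.6 CPM in KPC and 1141, 1046, 651 and 662 CPM in KPC IL6KO muscle. KPC muscle was far under both other groups, and KPC IL6KO mice 3 and 4 were the lower pair of their group. Against KPC IL6KO, 11 of 12 were again called lower in KPC (all genes: 27.3% lower and 26.4% higher), with Col3a1 at -4.89 and Col12a1 at 0.67. In KPC IL6KO against no tumor the quasi-likelihood test called 0 of 12, with 7 at an unadjusted p under 0.05 (all genes: 6.91%) and 0 by DESeq2 or the likelihood ratio test, and the median was -0.68.

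Decorin and type I collagen, its main binding partner, were set side by side as a ratio of counts within each library; this ratio was chosen after its values were seen and is given with no test. In quadriceps the counts of Dcn per count of Col1a1 were 1.23, 1.16 and 1.32 without a tumor, 21.6, 22.5, 39.1 and 41.1 with KPC and 1.23, 1.18, 2.26 and 3.12 with KPC IL6KO tumors. Every KPC muscle thus had several times more decorin transcript per collagen transcript than any other muscle, while KPC IL6KO mice 1 and 2 matched the no tumor range and mice 3 and 4 were above it. In fat the same ratio was 7.03, 5.61, 2.65 and 4.42 in no tumor, 1.96, 0.758, 0.974 and 1.36 in KPC and 0.588, 4.44, 4.03 and 2.26 in KPC IL6KO pads. There the KPC pads were all under the no tumor pads, the opposite direction to muscle (a difference not tested), and KPC IL6KO pad 5 was the lowest of all. In quadriceps the counts of Bgn per count of Dcn, also not tested, were 0.193, 0.228 and 0.187 in no tumor, 0.0746, 0.0751, 0.0627 and 0.0965 in KPC and 0.248, 0.236, 0.189 and 0.136 in KPC IL6KO, so KPC was under both other groups, with KPC IL6KO mice 1 and 2 above, mouse 3 within and mouse 4 under the no tumor range. In fat they were 0.317, 0.225, 0.435 and 0.247 in no tumor, 0.655, 0.887, 0.746 and 0.701 in KPC and 1.18, 0.335, 0.353 and 0.433 in KPC IL6KO. There KPC was above no tumor in all pads, KPC IL6KO pad 5 was above every KPC pad, and the other KPC IL6KO pads lay under KPC.

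**Figure D3:**
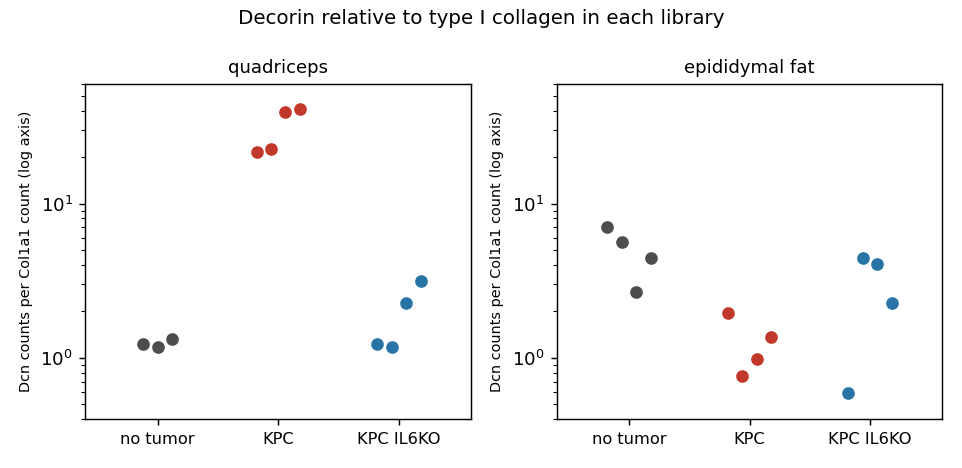
Counts of Dcn per count of Col1a1 in each library (vertical log axis, shared scale) of quadriceps and epididymal fat, by tumor group. KPC muscles lie at 21.6 to 41.1, above every other muscle (1.16 to 3.12), and KPC fat pads at 0.758 to 1.96, below every no tumor pad (2.65 to 7.03).

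Of the other family members outside the 10, 5 had a quadriceps row and 5 of 5 were called lower in KPC than in no tumor. Among those that met the cut on mean log2 CPM, values ran from -1.56 for Podn (podocan), the most abundant, to -2.15 for Ecm2. DESeq2 called 4 of 5, without Podn. For this list and those that follow, the shares of all genes called are 29% lower and 26.7% higher against no tumor, and 27.3% lower and 26.4% higher against KPC IL6KO. Their sum was 32.2, 46.1 and 33.1 CPM in no tumor, 7.99, 25.1, 5.01 and 6.14 CPM in KPC and 28.3, 25.5, 25.5 and 26.1 CPM in KPC IL6KO muscle, with KPC mouse 2 far above the other KPC muscles. Against KPC IL6KO, 4 of 5 were called lower: Ecm2 (-1.83), Tsku (-1.08), Chadl (-1.66) and Nepn (-3.20). Of 21 enzymes that build the linker and the chondroitin or dermatan chain, 13 were called lower and 1 higher in KPC than in no tumor, beside 29% of all genes lower and 26.7% higher. Chpf2, a chondroitin polymerizing factor, was the highest at 3.05 ± 0.24, and Dse, the epimerase that turns chondroitin into dermatan sulfate, the lowest at -1.96 ± 0.23. Fam20b, the xylose kinase of the linker and the most abundant of the list, was at -0.27. Against KPC IL6KO the counts were 9 lower and 1 higher, with Chpf2 at 3.01 and Dse at -1.57. Of 9 keratan chain enzymes, 3 were called lower than in no tumor, Chst1 (-1.45), St3gal1 (-0.59) and St3gal2 (-0.81), and 1 higher, the galactosyltransferase B4galt1 (1.99). Against KPC IL6KO, Chst2 (-0.63) and St3gal2 (-1.12) were lower and B4galt1 (1.78) higher. The enzymes of chain building thus did not all go the way of the core proteins.

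Among 8 collagen cross-linking enzymes, 4 were called lower and 1 higher in KPC than in no tumor (beside 29% of all genes lower and 26.7% higher), from -2.79 for Loxl2 to 1.32 for Lox, the lysyl oxidase. Against KPC IL6KO, 4 were lower and 2 higher (Loxl2 -2.12, Lox 1.70), and Plod1, the most abundant, was at -0.52 and -0.44. Among 12 proteases, 6 were called lower and 2 higher than in no tumor, with Pcolce, the enhancer of procollagen cleavage, at -3.67 and Htra1, a secreted serine protease and the most abundant of the list, at 2.25. Against KPC IL6KO the proteases gave 7 lower and 2 higher, with Pcolce at -3.23 and Htra1 at 2.14. Of 13 receptor genes, 3 were called lower and 2 higher than in no tumor, from -0.999 for Cd44 to 1.63 for Cd14, a co-receptor of Toll-like receptors. Against KPC IL6KO, 3 receptors were lower and 4 higher (Cd44 -1.05, Cd14 1.45), and the integrin chain Itgb1, the most abundant, was at 0.04 and 0.05. Among 15 genes of bound ligands and their receptors, 6 were lower and 5 higher than in no tumor, and 4 lower and 4 higher against KPC IL6KO. Mstn (myostatin), a brake on muscle growth that decorin binds, was the most abundant of that list and the highest, at 2.74 ± 0.45 against no tumor and 2.57 ± 0.40 against KPC IL6KO. Ltbp4, a latent TGF-beta binding protein, was the lowest, at -2.09 and -1.81. In KPC IL6KO against no tumor, the quasi-likelihood test called 0 genes of these lists, and at an unadjusted p under 0.05 there were 2 of the other family members, 1 cross-linking enzyme, 2 linker and chain enzymes, 1 keratan enzyme, 2 proteases, 0 receptors and 4 ligand genes, beside 6.91% of all genes. Across all 18 lists DESeq2 called 4 of 179 genes (Chst1, Bmp4, Ltbp2 and Pmp22), beside 0.748% of all genes, and the likelihood ratio test 4 (Chst1, Ltbp2, Lep and Pmp22), beside 0.74%.

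Markers of tendon cells and fibroblasts, which make these proteins, were lower with them in KPC quadriceps. Of 10 tendon and myotendinous junction markers, 8 were called lower and 0 higher in KPC than in no tumor (median -2.02). The shares of all genes were 29% lower and 26.7% higher. Against KPC IL6KO, 7 were called lower, beside 27.3% of all genes. Among markers with mean log2 CPM of at least 1, values against no tumor ran from -3.33 for Cilp2 to -1.03 for Cpxm2. Against KPC IL6KO, Cilp2 was at -2.55 and Cpxm2 at -0.62. Tnmd (tenomodulin), left out by that cut, was at -4.58 against no tumor. Their summed level was 169, 190.3 and 178 CPM in no tumor, 64.2, 42.7, 47.7 and 94.4 CPM in KPC and 132, 184, 70.6 and 98.5 CPM in KPC IL6KO muscle, Thbs4 (thrombospondin 4) being the most abundant, and all 10 have a row. Among KPC IL6KO muscles mouse 2 was the highest in this sum and in 4 of 9 members (Kera, Fmod, Chad and Prelp), mouse 4 was the highest in Dcn, Aspn and Ogn, and mouse 1 in Bgn and Lum. Mouse 3 was the lowest of that group in the sum and in each member except Aspn. Among KPC muscles mouse 4 was the highest in the sum and in Kera, Fmod, Chad and Aspn, mouse 1 in Dcn, Bgn, Lum and Ogn, and mouse 3 in Prelp. Of 14 fibroblast markers, 12 were called lower and 0 higher (median -2.21, beside 29% of all genes lower and 26.7% higher). Against KPC IL6KO, 13 were called lower, beside 27.3% of all genes. With the same cut, values against no tumor ran from -4.17 for Pi16, a marker of progenitor fibroblasts, to -0.08 for Pdgfrb. Against KPC IL6KO, Pi16 was at -3.92 and Pdgfrb at -0.20. The 14 markers summed to 1739, 2165 and 1918 CPM in no tumor, 871, 814, 541 and 556 CPM in KPC and 1419, 1271, 1123 and 1603 CPM in KPC IL6KO muscle, Gsn being the most abundant. Against no tumor, KPC IL6KO had 0 called in either list by the quasi-likelihood test, DESeq2 and the likelihood ratio test, with 1 of 10 tendon and 4 of 14 fibroblast markers at an unadjusted p under 0.05, beside 6.91% of all genes. What part the amount of tendon or sheath in each muscle sample had in the members' values was not tested.

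**Figure D4:**
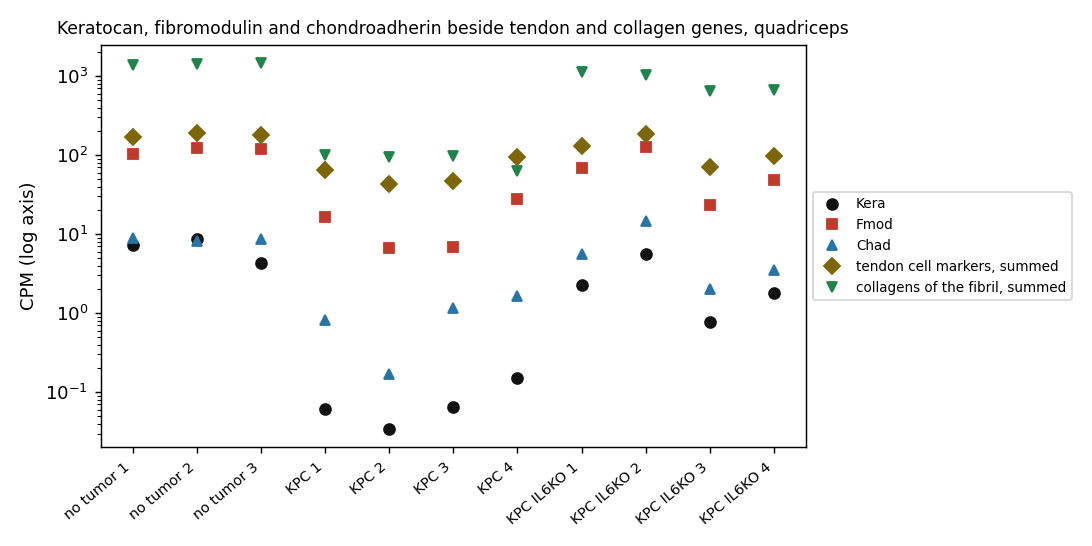
CPM in each quadriceps library (vertical log axis) of Kera, Fmod and Chad, 3 of the 9 members picked after their values were seen, with the summed CPM of 10 tendon markers and of 12 fibril collagens. KPC IL6KO 2 is the highest and KPC IL6KO 3 the lowest of its group in the 3 genes and the tendon sum (184 and 70.6 CPM).

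Kera had the widest span of group means in quadriceps. The 5 genes whose log2 CPM followed it most closely across the 11 libraries, by the root mean square difference after centering each gene, were Foxo6 (0.577), Mdga1 (0.706), Tnmd (0.749), Col6a2 (0.751) and Arnt2 (0.770), against a median of 2.598 over 11552 genes. Tnmd (tenomodulin) is a tendon gene, Col6a2 encodes a chain of collagen VI, Foxo6 and Arnt2 encode transcription factors, and Mdga1 a membrane-anchored adhesion protein. In fat Prelp had the widest span, and its nearest genes over 12 libraries were Eepd1 (0.270), Apol6 (0.285), Podn (0.297), Gsn (0.304) and Lyz1 (0.324), against a median of 1.45 over 15034 genes. Prelp was far the highest in no tumor pad 6 (711 CPM) and KPC IL6KO pad 7 (529.7 CPM). How far the span and the likeness rest on these pads was not tested. Gsn (gelsolin) severs actin filaments, Podn (podocan) is a matrix protein and Lyz1 a lysozyme.

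The fat comparison asks how the pad of KPC mice differs from that of mice without a tumor; estimates of members took both directions, and 0 of 9 were called in KPC against no tumor by the edgeR quasi-likelihood test, beside 0% of 16962 genes. At an unadjusted p under 0.05 there were 5 of 9 (Bgn, Aspn, Fmod, Prelp and Ogn), beside 12.2% of genes. DESeq2 called 3 lower (Fmod, Prelp and Ogn), beside 1.3% of genes, and the likelihood ratio test 2 lower (Fmod and Ogn), beside 0.855%. Groups did not overlap for 1 member in the higher direction (Bgn), beside 6.52% of genes, and for 3 in the lower direction (Fmod, Omd and Ogn), beside 4.39%. Pads varied far more between mice than muscles did, with a common coefficient of variation of 63.5% against 22.7%.

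Biglycan, the Toll-like receptor ligand, had 139, 282, 113 and 238 CPM in no tumor pads 5 to 8, 671, 528, 363 and 331 CPM in KPC pads and 559, 155, 369.5 and 502 CPM in KPC IL6KO pads. All 4 KPC pads were above all 4 no tumor pads, and of the KPC IL6KO pads 3 were above and pad 6 was within the no tumor range. The log2 difference was 1.29 ± 0.43 for KPC (adjusted p = 0.289) and 1.04 ± 0.43 for KPC IL6KO (adjusted p = 0.499), so neither passed the test. Fibromodulin had 63.3, 73.4, 64.96 and 59.4 CPM in no tumor, 20.03, 39.7, 33.7 and 23.4 CPM in KPC and 26.2, 81.4, 48.1 and 44.1 CPM in KPC IL6KO pads. The no tumor pads were close together and all above the KPC pads, and of the KPC IL6KO pads 5 was within the KPC range and 6 above no tumor (KPC against no tumor -1.16 ± 0.32, adjusted p = 0.234). Osteoglycin, which is secreted by many mesenchymal cells, had 89.3, 141, 61.9 and 101 CPM in no tumor, 32.9, 55.6, 32.6 and 27.3 CPM in KPC and 27.6, 83.2, 100.1 and 81.2 CPM in KPC IL6KO pads. KPC was under no tumor in all pads and KPC IL6KO pad 5 lay with KPC, while the other KPC IL6KO pads lay within the no tumor range (KPC against no tumor -1.41 ± 0.39, adjusted p = 0.234). Prelp had 114, 711, 42.6 and 151 CPM in no tumor, 55.6, 45.6, 43.5 and 35.3 CPM in KPC and 95.1, 85.7, 529.7 and 175 CPM in KPC IL6KO pads. No tumor pad 6 and KPC IL6KO pad 7 stood far above the rest, and no tumor pad 7 lay within the KPC range; the estimate for KPC, -2.50 ± 0.84 (adjusted p = 0.293), was -1.19 without no tumor pad 6.

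Decorin, the most abundant member per kilobase in fat as in muscle, had 439, 1251, 261 and 960.4 CPM in no tumor, 1025, 595, 487 and 472 CPM in KPC and 474, 464, 1047 and 1161 CPM in KPC IL6KO pads. These ranges overlap fully, and the log2 difference for KPC was -0.17 ± 0.52, or 0.22 without no tumor pad 6. Lumican likewise overlapped, with 15.8 to 84.02 CPM in no tumor, 29.3 to 50.1 CPM in KPC and 31.1 to 91.5 CPM in KPC IL6KO pads (KPC against no tumor -0.46 ± 0.47). Asporin ranged over 4.93 to 36.2 CPM in no tumor and 3.59 to 12.4 CPM in KPC pads, with a log2 difference of -1.37 ± 0.57 that was -0.73 without no tumor pad 6. Osteomodulin, a bone matrix protein, had 3.89, 3.74, 3.16 and 3.65 CPM in no tumor, 0.613, 2.32, 1.62 and 2.67 CPM in KPC and 3.53, 3.05, 1.78 and 1.25 CPM in KPC IL6KO pads. It was low throughout, and its KPC pads were all under its no tumor pads (-0.999 ± 0.49, adjusted p = 0.448). Chondroadherin ranged over 0.237 to 1.43 CPM without a tumor and 0.321 to 1.75 CPM with KPC, with an estimate of 0.16 ± 0.91 whose sign changed when single pads were left out. Per kilobase, the order in no tumor pads, in CPM per kb, was Dcn (125), Prelp (70.4), Ogn (38.3), Bgn (31.6), Lum (22.3), Fmod (19.7), Aspn (7.43), Omd (1.60) and Chad (0.612). Neighbours from Dcn down to Fmod overlap in their ranges, while Fmod, Aspn, Omd and Chad are separate steps. Bgn was the second in KPC pads at 77.6 CPM per kb, its range overlapping that of Dcn at 110.4.

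**Figure D5:**
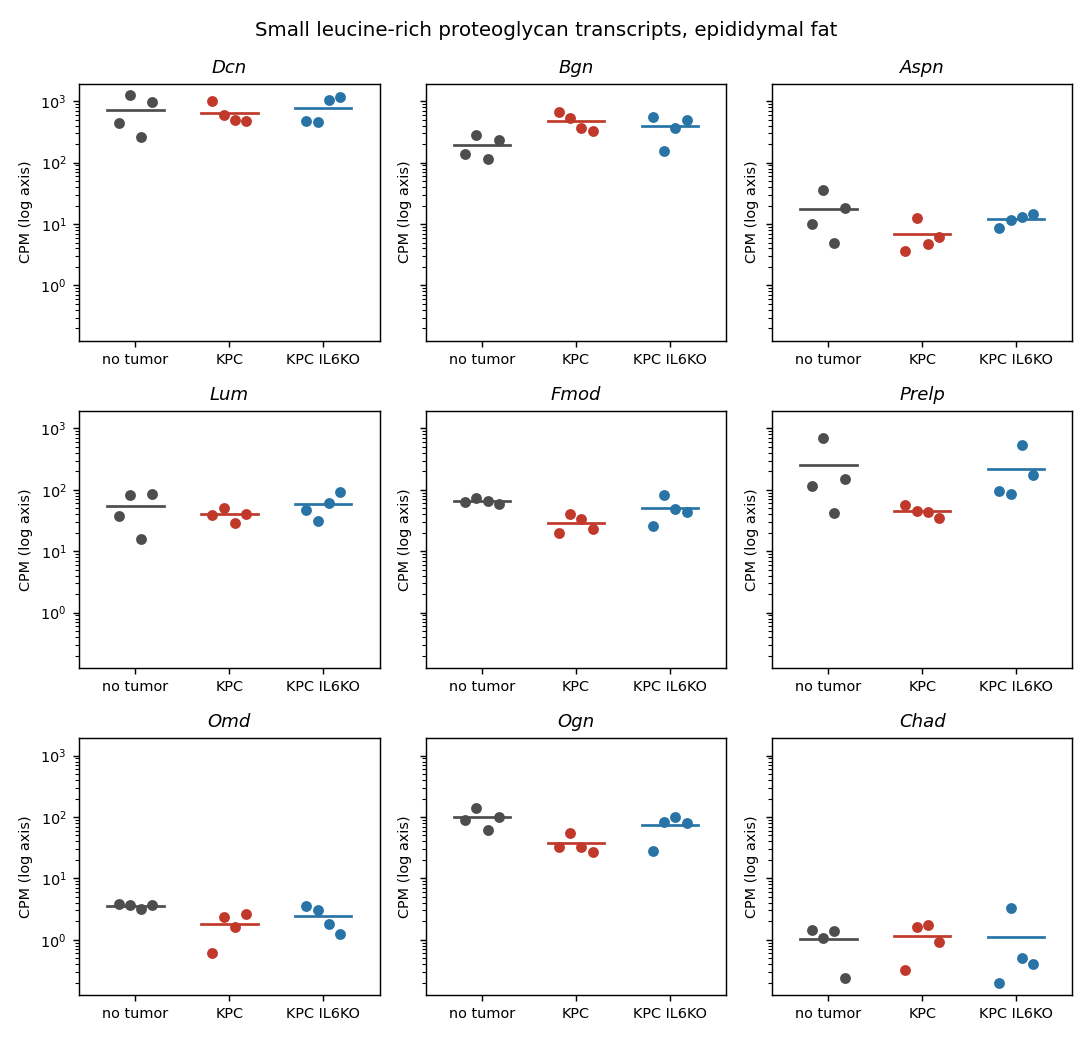
CPM of the 9 measured proteoglycan genes in each epididymal fat library on a shared log axis; points are libraries (4 per group) and lines are group means. Bgn is higher in all 4 KPC pads than in the no tumor pads and Fmod, Omd and Ogn lower, while the other 5 members overlap.

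With KPC IL6KO tumors, 0 of 9 members were called against no tumor by the quasi-likelihood test, beside 0% of genes, and 1 (Bgn) had an unadjusted p under 0.05, beside 9.34%. DESeq2 called 0 members and 1.69% of genes, and the likelihood ratio test 0 members and 1.23%. Apart from Bgn, the estimates ran from -0.58 for Omd to 0.11 for Dcn. That of Prelp was -0.20 ± 0.79, and it ran from -1.12 without KPC IL6KO pad 7 to 1.11 without no tumor pad 6. Between the tumor groups 0 of 9 were called by the quasi-likelihood test, beside 0% of genes. Of these, 3 (Fmod, Prelp and Ogn) had an unadjusted p under 0.05, beside 6.26%. DESeq2 called 0 members and 0.737% of genes, and the likelihood ratio test 0 and 0.389%. Prelp was lower in all KPC than in all KPC IL6KO pads (-2.30 ± 0.83, adjusted p = 0.678), the 1 member of 9 without overlap, beside 3.69% of genes, and the estimate was -1.37 without KPC IL6KO pad 7. Fmod and Ogn gave -0.77 ± 0.31 and -0.98 ± 0.39, and Bgn 0.26 ± 0.42. That of Bgn was -0.01 without KPC IL6KO pad 6 and 0.98 with the share of epididymis counts as a covariate (adjusted p = 0.555).

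The difference of the differences between tissues was tested in 1 fit of the 12599 genes in both tables. For KPC against no tumor, 4 of 8 members passed an adjusted p of 0.05 (Bgn, Fmod, Lum and Chad, all lower in quadriceps relative to fat), beside 38.6% of genes, and since the quadriceps side was in view when members were chosen nothing is read from the count. For KPC IL6KO against no tumor, 0 of 8 passed in this quasi-likelihood test, beside 0% of genes, and 1 of 8, Bgn, had an unadjusted p under 0.05, beside 7.96%. The other 4 did not pass for KPC, with quadriceps minus fat at -0.63 ± 0.58 for Dcn, 0.01 ± 0.67 for Aspn, 0.29 ± 0.91 for Prelp and -0.72 ± 0.51 for Ogn; no other tool was run on this difference.

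For the same lists in fat, the quasi-likelihood test called 0 genes of any list in the 3 comparisons; beside the counts at an unadjusted p under 0.05 for KPC against no tumor stands 12.2% of all genes. Of 12 fibril collagens, 8 had a positive estimate in KPC against no tumor (median 0.23, all genes -0.10), 4 had an unadjusted p under 0.05, and Col3a1, the most abundant, was at 1.37 ± 0.67; in KPC IL6KO 9 were positive (median 0.78). They summed to 893 to 3625 CPM in no tumor, 2778 to 5703 CPM in KPC and 1209 to 5867 CPM in KPC IL6KO pads. All 8 cross-linking enzymes had positive estimates (median 1.12, 3 at an unadjusted p under 0.05; Plod3, the most abundant, 0.17), and 8 of 8 also in KPC IL6KO (median 1.42). Of the other lists, 7 of 9 other family members were negative (median -1.13; Podn, the most abundant, -1.96), with 4 at an unadjusted p under 0.05. The 22 linker and chain enzymes had a median of 0.01 (Fam20b -0.51) and the 11 keratan enzymes 0.15 (St3gal2 -0.60), with 2 and 4 at an unadjusted p under 0.05. Proteases were positive for 10 of 13 (median 0.88; the membrane protease Mmp14, the most abundant, 1.60) and receptors for 12 of 14 (median 0.88; Itgb1 0.21), with 8 and 7 at an unadjusted p under 0.05 (all genes: 12.2%). The 14 genes of bound ligands and receptors had a median of 0.15 (Ltbp3, the most abundant, 0.51) and 1 at an unadjusted p under 0.05, and Mstn has no row in fat.

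Across the 18 lists in fat, DESeq2 called 26 of 211 genes in KPC against no tumor, beside 3.45% of all genes, and the likelihood ratio test 22, beside 2.43%. Both called 21. Higher were Adamts4 (5.47), Mmp3 (3.81), Cd44 (3.14), Cd14 (2.52), Lox (2.32), Mrc1 (2.06), Fcgr1 (1.88), Cd68 (1.81), Mmp14 (1.60) and Bmp1 (1.58). Lower were Ckm (-5.60), Acta1 (-5.41), Lep (-3.74), Chst1 (-3.11), Pi16 (-2.72), Gsn (-2.58), Dpt (-2.26), Ecm2 (-1.86), Htra1 (-1.35), Cpxm2 (-1.19) and Col14a1 (-1.19). With the share of epididymis counts as a covariate, 12 of 211 were called in KPC against no tumor, each in the higher direction, beside 1.57% of all genes: Col1a1, Col1a2, Col5a2, Loxl2, Loxl4, Chsy1, Bmp1, Adamts4, Mmp3, Cd14, Cd44 and Msln. Of the 21 above these include 5, and 0 of the 11 lower genes; in the other 2 comparisons the covariate fit called 0. In KPC IL6KO against no tumor DESeq2 called 12 and the likelihood ratio test 7 (all genes: 1.69% and 1.23%). Between the tumor groups they called 9 and 9 (all genes: 0.737% and 0.389%); all 9 of the likelihood ratio test and 7 of the 9 of DESeq2 are muscle fiber genes.

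Marker sums of other tissues and cells varied between pads. Transcripts of 19 epididymis genes, Gpx5 the most abundant, summed to 113644, 15391, 91651 and 25504 CPM in no tumor, 47520.2, 77994, 55104 and 52512 CPM in KPC and 774, 110529, 22950.4 and 11879 CPM in KPC IL6KO pads. By the quasi-likelihood test 0 of 19 were called, and 0 had an unadjusted p under 0.05 in KPC against no tumor. With the log2 share of these counts as a covariate, 1 member was called higher in KPC than in no tumor (Bgn), beside 1.57% of genes, and 1 lower (Fmod), beside 0.183%. Adipocyte markers, 12 of 12 negative in KPC against no tumor (median -1.39, 4 at an unadjusted p under 0.05 against 12.2% of all genes; Car3, the most abundant, -2.45), summed to 8319, 52246, 2928 and 16864 CPM in no tumor, 14064, 8034, 5357 and 3844 CPM in KPC and 7201, 10117, 30679 and 14441 CPM in KPC IL6KO pads. No tumor pad 6 and KPC IL6KO pad 7, the pads highest in Prelp, were the highest of their groups in this sum too. Fibroblast markers had a median of 0.04 and summed to 3472, 13610.3, 1855 and 4260.2 CPM in no tumor, 2255, 2315, 1591 and 1475 CPM in KPC and 2771, 3332, 8582 and 3754 CPM in KPC IL6KO pads, Gsn being the most abundant (-2.58). Of these 14 genes 3 had an unadjusted p under 0.05, and the same 2 pads were the highest. Macrophage markers were positive for 12 of 12 (median 1.40, 8 at an unadjusted p under 0.05; Lyz2, the most abundant, 1.31) and summed to 509.8, 1245, 345 and 656 CPM in no tumor, 2244, 2189.5, 1474 and 1466 CPM in KPC and 1883, 555, 1634 and 3893 CPM in KPC IL6KO pads. Muscle fiber genes, Myh4 the most abundant, summed to 18.1, 119, 19.5 and 314 CPM in no tumor, 13.8, 13.5, 15.3 and 17.98 CPM in KPC and 103, 226, 467 and 2862 CPM in KPC IL6KO pads, with KPC IL6KO pad 8 the highest. The part of these tissues and cells in the members' values was not tested beyond the covariate.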

How the data were processed

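Quadriceps and epididymal fat were sequenced in separate runs. The authors deposited raw counts of uniquely mapped reads per gene symbol (STAR on mm10, featureCounts 1.5.1), and the removal of 1 outlying no tumor muscle and of rarely counted genes was theirs. The members and lists were chosen with earlier results of these data known. Counts of each tissue were fitted in 1 model of 3 groups with edgeR 4.0.16 (quasi-likelihood F test, TMM, filterByExpr, which removed 0 genes) in R 4.3.3; called means a Benjamini-Hochberg adjusted p of at most 0.05 over all genes and a fold change of at least 1.5. Standard errors are the log2 fold change over the root of F. Alternatives were DESeq2 1.42.0, the edgeR likelihood ratio test, a newer quasi-likelihood form, RLE scaling, other filters, 2 groups alone, a replicate block, epididymis genes left out or as a covariate, and each library left out. Named were all members, their neighbouring genes, the most abundant gene of each list, and called list genes, or beyond 4 the highest and lowest with mean log2 CPM of at least 1, and the 5 genes most like the member of widest span. Positions and exon lengths are from GENCODE on GRCm38. The 18 lists cover other family members, fibril collagens, cross-linking, chain enzymes, keratan enzymes, proteases, receptors, ligands, and markers of tendon, fibroblasts, cartilage and bone, myofibers, adipocytes, mesothelium, epididymis, endothelium, macrophages and Schwann cells. Calls were checked on simulated counts in which the planted changes were larger than the 1.5-fold threshold. Changes near that threshold were not simulated.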

Additional observations from a re-analysis of the deposited data

Results flagged for a closer look

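Of 45 groups of 4 libraries, 2 held a value far from the others by Dixon's test, which by chance happens in about 1 group in 20. Prelp was at 711 CPM in no tumor fat pad 6, and at 42.6 to 151 CPM in the other no tumor pads. Chad was at 3.33 CPM (97 counts) in KPC IL6KO fat pad 6, and at 0.196 to 0.505 CPM in the other KPC IL6KO pads. The quadriceps no tumor group has 3 libraries and was not examined in this way. In the test of quadriceps minus fat for KPC against no tumor over 23 libraries, the log2 difference was -3.50 for Bgn, -3.26 for Lum, -3.48 for Chad and -1.96 for Fmod. The low quadriceps values were known when the members were chosen, and tissue is confounded with RNA extraction, library preparation and sequencing run. A handling offset shared by all groups of a tissue cancels in this difference. Handling that changes the measured difference between groups cannot be told apart from the tissue for these genes.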

How the results depend on the processing

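In quadriceps the counts of members called kept within 1.5 times of those given under all 19 alternatives, and the range over libraries left out was 9 to 9 called lower for KPC against no tumor, 0 to 0 for KPC IL6KO against no tumor and 8 to 8 for KPC against KPC IL6KO. In fat, for KPC against no tumor, the number called lower was 3 with DESeq2 and 2 with the likelihood ratio test in place of 0, and with the epididymis share as a covariate 1 was called higher and 1 lower in place of 0 and 0; the cause was not tested. Every other fat count, including all with a library left out (0 to 0), was 0 under the 23 alternatives. Chosen after seeing the data, leaving out no tumor pad 6 and KPC IL6KO pad 7 together gave 0 called, and a Prelp difference of -1.16 for KPC against no tumor. No called member changed direction, and no member's estimate changed sign under RLE, DESeq2 scaling or removal of the epididymis genes. Leaving out KPC IL6KO pad 6 gave Chad estimates of -1.48 for KPC IL6KO against no tumor and 1.64 for KPC against KPC IL6KO. Asking for 10 counts in every library left Kera untested in quadriceps and Chad in fat. Libraries with the same number in different groups were treated as unpaired (correlations of -0.171 to 0.283 over 10 pairs in quadriceps and -0.559 to 0.662 over 12 in fat). Depth limits Kera in KPC muscle, the spread between pads limits fat, each IL6KO result rests on 1 clone, and tissue is confounded with library preparation and sequencing run.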

Other observations

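Other cell type markers are given for completeness, with no reading of the members from them. In quadriceps the shares of all genes called are 29% lower and 26.7% higher against no tumor and 27.3% lower and 26.4% higher against KPC IL6KO. In quadriceps, Schwann and nerve sheath markers were called lower for 6 of 10 and higher for 1 in KPC against no tumor, the latter being Slc2a1, a glucose transporter gene (1.33). Against KPC IL6KO, Itgb4 (-0.82) was lower and Slc2a1 (1.23) higher. Macrophage markers gave 2 lower, Adgre1 (-1.54) and Mrc1 (-0.96), and 1 higher, Cd68 (3.22), of 12, with Lyz2, the most abundant, at -0.40. Against KPC IL6KO they gave 4 lower and 1 higher, from -1.75 for Adgre1 to 3.26 for Cd68. Endothelial markers gave 2 lower, Kdr (-0.79) and Tek (-0.84), and 1 higher, Cldn5 (2.16), of 10, Cdh5 being the most abundant (-0.24). Against KPC IL6KO Kdr (-0.80), Tek (-1.15) and Vwf (-0.64) were lower and Cldn5 (2.14) higher. Of 12 myofiber genes, Acta1 (-0.69), Mylpf (-1.27) and Pvalb (-1.49) were called lower, as were these and Mb (-0.94) against KPC IL6KO (Acta1 -0.97, Mylpf -1.19, Pvalb -1.38), and Myh4, the most abundant, was at -0.52. Of 12 adipocyte genes 3 were called lower and 2 higher, from -2.70 for Lep (leptin) to 2.15 for Pnpla2, a triglyceride lipase gene. Against KPC IL6KO Plin4, the most abundant (2.43), and Pnpla2 (2.30) were higher and Car3 (-1.62) lower. Cartilage and bone markers had 2 of 10 rows, Col9a1 (-2.46; -2.00 against KPC IL6KO), called lower, and Sox9, the more abundant (1.40; 1.80), called higher. Mesothelial markers had 2 of 10 rows, Krt18, the more abundant (2.65; 4.07), called higher in both, and Krt19 (2.53 against KPC IL6KO), and of 20 epididymis genes 1, Cuzd1 (-0.24), had a row. In KPC IL6KO against no tumor these lists had 0 called by the quasi-likelihood test, with 6 Schwann, 5 adipocyte and 1 endothelial marker at an unadjusted p under 0.05 (all genes: 6.91%) and 0 of the rest; DESeq2 called Pmp22 among them and the likelihood ratio test Pmp22 and Lep.

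In fat, tendon markers in KPC against no tumor had a median of -1.19 with 3 of 9 at an unadjusted p under 0.05, beside 12.2% of all genes (Cpxm2, the most abundant, -1.19), and mesothelial markers a median of 1.27 with 4 of 10 (Krt18, the most abundant, 1.27). Endothelial markers had a median of 0.50 with 0 of 10 (Pecam1, the most abundant, 1.02), Schwann markers -0.17 with 3 of 9 (Pmp22, the most abundant, -1.13), and muscle fiber genes -4.22 with 7 of 11 (Myh4 -7.54). Cartilage and bone markers had 3 of 10 rows, with Acan (aggrecan) at 4.68, Col2a1 at -1.41 and Sox9, the most abundant, at 0.41. The quasi-likelihood test called 0 of these.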
